A study of Mus musculus with 8 samples.

Results

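The 10 genes described here encode the transcription factors that build the erythroid gene network: Gata1, Gata2, Zfpm1, Tal1, Lyl1, Lmo2, Ldb1, Klf1, Gfi1b and Nfe2. They were chosen by symbol, and all 10 were found among the 15142 genes listed in all tables. All 10 were also among the 11347 genes tested, which reached at least 1 FPKM in at least 2 libraries. FPKM counts fragments per kilobase of a gene, corrected for the depth of the library. The 8 libraries were made from RNA of hematopoietic stem cells (HSCs) of wild-type C57BL/6 mice. Control BM HSCs (n = 3) came from the bone marrow of mice labelled as given PBS. PHZ BM HSCs (n = 3) and PHZ SP HSCs (n = 2) came from the marrow and the spleen of mice given phenylhydrazine (PHZ), a drug that destroys red cells and causes hemolytic anemia. PHZ was given intraperitoneally at 60 mg/kg on 2 consecutive days, and cells were sorted 3 days after the last injection. Per the study's methods, HSCs were LSK cells that were CD150+ and CD48-/low, and the mice were young adults of both sexes. No HSCs from an untreated spleen were analysed here, so PHZ and organ cannot be told apart in spleen cells. The labels do not say which libraries came from separate animals, so p-values measure the spread between these libraries.

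In blood formation, GATA2 is the GATA factor of stem and progenitor cells, and GATA1 replaces it on many shared sites as cells commit to the red cell lineage, an exchange known as the GATA switch. GATA1 works with its cofactor FOG1 (the product of Zfpm1) and, on many erythroid enhancers, with a complex in which TAL1 or its relative LYL1 binds an E-box and LMO2 and LDB1 bridge the partners. KLF1 then switches on globin, membrane and heme genes by binding CACC boxes, GFI1B represses progenitor genes, and NF-E2 (whose large subunit is the product of Nfe2) acts at globin and platelet genes.

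All 10 HSC marker genes checked, among them Procr, Slamf1, Kit, Ly6a, Mecom, Hlf, Hoxb5, Fgd5 and Mllt3, had a mean of at least 1 FPKM in every group. Reads worked back from the FPKM values came to between 8222365 and 13212943 per library, of which the ribosomal precursor Rn45s took 43.3% to 48.5%. In the fit across all genes (limma on log2(FPKM + 1), Benjamini-Hochberg adjusted p under 0.05), 0.758% of genes differed between PHZ SP HSCs and control BM HSCs, 0.978% between PHZ SP HSCs and PHZ BM HSCs, and 2.74% between PHZ BM HSCs and control BM HSCs. Of the 10 factors, 1 passed in each comparison: Klf1 rose in PHZ SP HSCs against control BM HSCs, Ldb1 fell in PHZ SP HSCs against PHZ BM HSCs, and Gata2 rose in PHZ BM HSCs against control BM HSCs. The comparisons share libraries and are not independent of each other.

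Promoter windows of the 250 bases before a RefSeq start (assembly GRCm38.p6) were read for 8 of the 10 genes, 12 windows in all; Nfe2 and Lmo2 had no entry. Both strands were searched for GATA words (GATAA or GATAG with an A or a T before it), which 26.5% of the 32851 windows in the table hold. Among the 12 windows of the factors, 4 held one, in Klf1, Gfi1b, Tal1 and Ldb1. They are shown because Klf1 and Ldb1 passed a test and because GATA words are the letters that Gata1 and Gata2 products recognise. Capitals mark the GATA word, read 5′ to 3′ on the strand of the gene.
Klf1 (chr8:84901732-84901927, plus strand): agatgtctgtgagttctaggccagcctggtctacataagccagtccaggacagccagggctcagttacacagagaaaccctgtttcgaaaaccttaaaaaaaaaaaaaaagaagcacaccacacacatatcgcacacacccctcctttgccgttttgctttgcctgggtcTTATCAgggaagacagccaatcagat
Gfi1b (chr2:28621983-28622232, minus strand): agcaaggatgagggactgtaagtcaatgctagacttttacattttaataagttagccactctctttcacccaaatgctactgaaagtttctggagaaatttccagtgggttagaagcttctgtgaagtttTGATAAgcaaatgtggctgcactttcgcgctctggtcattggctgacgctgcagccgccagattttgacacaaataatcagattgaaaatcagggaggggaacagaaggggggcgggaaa
Tal1 (chr4:115056176-115056425, plus strand): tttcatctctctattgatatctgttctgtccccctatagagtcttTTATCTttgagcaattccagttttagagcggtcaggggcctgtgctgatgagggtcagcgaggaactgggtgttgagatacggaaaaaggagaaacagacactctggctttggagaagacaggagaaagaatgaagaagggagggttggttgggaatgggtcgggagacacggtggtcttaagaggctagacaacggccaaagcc
Ldb1 (chr19:46037071-46037320, minus strand): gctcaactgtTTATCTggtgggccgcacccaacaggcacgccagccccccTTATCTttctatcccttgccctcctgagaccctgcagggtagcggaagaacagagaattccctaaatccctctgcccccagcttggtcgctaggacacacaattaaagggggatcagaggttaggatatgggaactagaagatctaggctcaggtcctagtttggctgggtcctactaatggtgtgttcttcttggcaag

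The Klf1 run stops 54 bases before the RefSeq start, where an annotated exon begins, and its GATA word starts 80 bases before the start. The GATA word of Gfi1b starts 120 bases before the start, that of Tal1 205 bases before the first of its 2 starts, and the pair in Ldb1 240 and 200 bases before the last of its 3 starts, after which the bases matched no GENCODE transcript of Ldb1. An E-box (CANNTG) follows the GATA word in Klf1, 59 bases before the start with its last base beyond the part shown, and in Gfi1b, 113 bases before the start. In Ldb1 an E-box starts 247 bases before the start, ahead of the first GATA word. Of all windows 66.2% hold an E-box, and no E-box overlapped a GATA word in these windows. CACC words (CCACACCC or CCACGCCC, either strand) are in 7.72% of all windows and, of the 12, in that of Zfpm1. The windows of Gata1 and Gata2 held no GATA word. A match is a description of the letters in the window.

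By mean level per length over the 8 libraries, Lmo2 was the highest of the 10 at 331 FPKM, above 99.4% of the genes tested. Lyl1 (110 FPKM), Nfe2 (71.4 FPKM), Gata2 (60.6 FPKM) and Gfi1b (36.2 FPKM) followed. Tal1 (13.5 FPKM) and Ldb1 (13.2 FPKM) were nearly level, and Tal1 was above Ldb1 in 4 of 8 libraries. Gata1 (5.13 FPKM), Zfpm1 (4.96 FPKM) and Klf1 (3.93 FPKM) were the lowest, and Gata1 was above Zfpm1 in 4 of 8 libraries. Of neighbours in this order, only Lmo2 and Lyl1, and Gfi1b and Tal1, had ranges over the 8 libraries that did not overlap. Klf1 varied most, by 12.6-fold between its lowest and its highest library, and Tal1 least, by 1.47-fold.

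**Figure D1:**
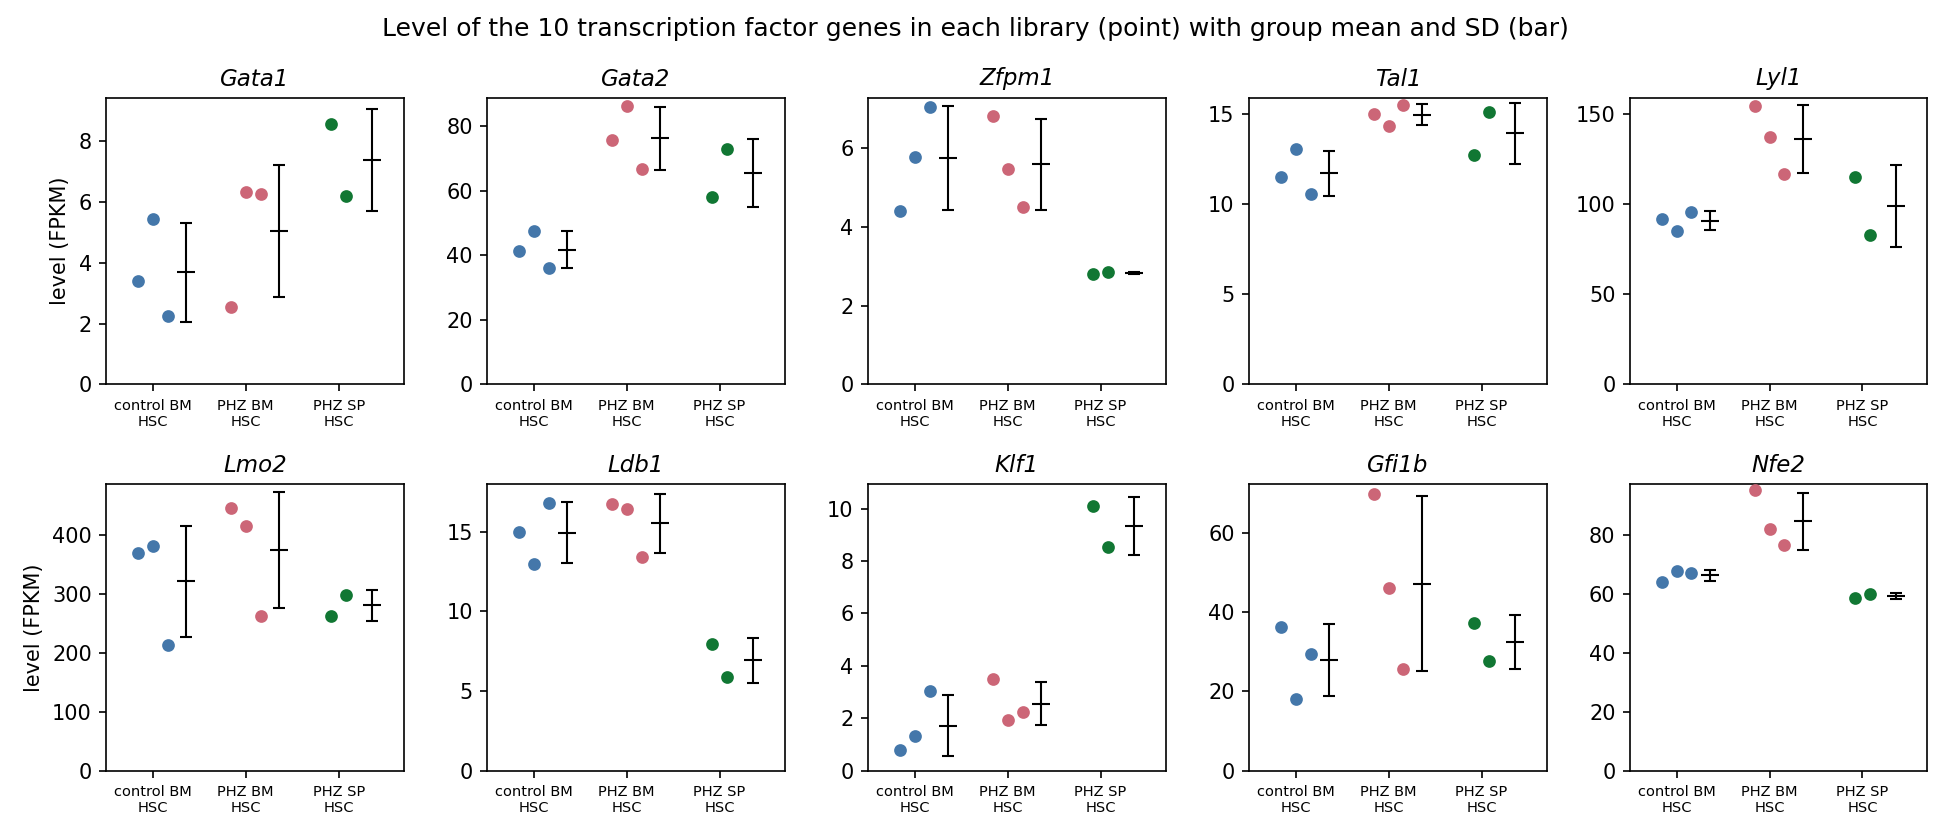
Level in FPKM (y axis, from 0, a scale of its own in each panel) of the 10 factors by group (x axis); each point is 1 library in order of replicate number, and the bar beside the points gives the mean and SD. Klf1 is at 8.54 and 10.1 FPKM in PHZ SP HSCs and at most 3.49 FPKM elsewhere, Ldb1 and Zfpm1 are lowest in PHZ SP HSCs, and Gata2 is lowest in control BM HSCs.

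The GATA factors were described first. Gata2 (Entrez gene 14461, chr6:88193891-88207032) was at 41.3, 47.7 and 36.2 FPKM in control BM HSCs, 75.8, 86.3 and 66.7 FPKM in PHZ BM HSCs and 58.0 and 72.9 FPKM in PHZ SP HSCs. Every PHZ library, of marrow or spleen, lay above every control library. In PHZ BM HSCs the mean was 76.3 ± 9.80 FPKM (SD, n = 3) against 41.7 ± 5.76 FPKM (SD, n = 3) in control BM HSCs, 1.83-fold higher. The difference was 0.86 ± 0.16 (SE, 95% interval 0.50 to 1.22) on the log2(FPKM + 1) scale, with adjusted p = 0.0180. The PHZ SP HSC mean of 65.4 ± 10.5 FPKM (SD, n = 2) was 0.64 ± 0.18 above control on that scale and did not pass (adjusted p = 0.127). Leaving out a single library kept the Gata2 call in 4 of 8 fits (adjusted p 0.0168 to 0.112). Without control BM HSC 1 it was 0.0557, without control BM HSC 3 0.0625, without PHZ BM HSC 1 0.0805 and without PHZ BM HSC 2 0.112.

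Gata1 (14460, chrX:7959260-7976663), the factor that drives terminal red cell maturation, was at 3.40, 5.44 and 2.23 FPKM in control BM HSCs, 2.54, 6.33 and 6.28 FPKM in PHZ BM HSCs and 8.58 and 6.19 FPKM in PHZ SP HSCs. These values rest on 65 to 234 reads. Both spleen libraries lay above all control libraries but not above all PHZ BM libraries. The spleen mean of 7.39 ± 1.69 FPKM (SD, n = 2) was 2.001 times the control mean of 3.69 ± 1.63 FPKM (SD, n = 3), with a log2 difference of 0.88 ± 0.38 (95% interval 0.04 to 1.72) and adjusted p = 0.293. PHZ BM HSCs, at 5.05 ± 2.17 FPKM (SD, n = 3), differed from control by 0.35 ± 0.34 on the same scale (adjusted p = 0.658). Over 17 alternatives that difference lay between 0.11 and 0.70.

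Zfpm1 (22761, chr8:122281856-122337862), which encodes the GATA1 cofactor FOG1, was at 4.41, 5.78 and 7.04 FPKM in control BM HSCs, 6.81, 5.47 and 4.50 FPKM in PHZ BM HSCs and 2.81 and 2.85 FPKM in PHZ SP HSCs. Both spleen libraries lay below all 6 marrow libraries. The log2 difference was -0.80 ± 0.27 from control (adjusted p = 0.177) and -0.77 ± 0.27 from PHZ BM HSCs (adjusted p = 0.233), and neither passed.

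Because the GATA switch is a matter of the balance between the factors, Gata1 was set against Gata2 within each library. Gata2 was the higher gene in all 8 libraries. The Gata2 level was 12.1, 8.76 and 16.2 times that of Gata1 in the control BM HSC libraries, 29.8, 13.6 and 10.6 times in PHZ BM HSCs and 6.75 and 11.8 times in PHZ SP HSCs. On the log2(FPKM + 1) scale, Gata1 minus Gata2 averaged -3.24 ± 0.30 (SD, n = 3) in control BM HSCs, -3.74 ± 0.63 (SD, n = 3) in PHZ BM HSCs and -2.99 ± 0.52 (SD, n = 2) in PHZ SP HSCs. The groups overlapped in every comparison. By a two-sided exact permutation test over libraries, PHZ SP HSCs differed from control by 0.24 (p = 0.6) and from PHZ BM HSCs by 0.75 (p = 0.4). By the same exact test PHZ BM HSCs differed from control by -0.51 (p = 0.3). Each had a Benjamini-Hochberg value of 0.6 over the 3 comparisons. The smallest p this design can give is 0.1. The direction for PHZ SP HSCs against control turned to -0.13 without PHZ SP HSC 1 and ranged up to 0.61 (without PHZ SP HSC 2). When 1 library was left out, the difference from PHZ BM HSCs ranged from 0.38 (without PHZ SP HSC 1; 0.40 without PHZ BM HSC 1) to 1.122 (without PHZ SP HSC 2), and that of PHZ BM HSCs from control ranged from -0.77 (without PHZ BM HSC 3) to -0.16 (without PHZ BM HSC 1). No shift of this balance was detectable with these library numbers.

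**Figure D2:**
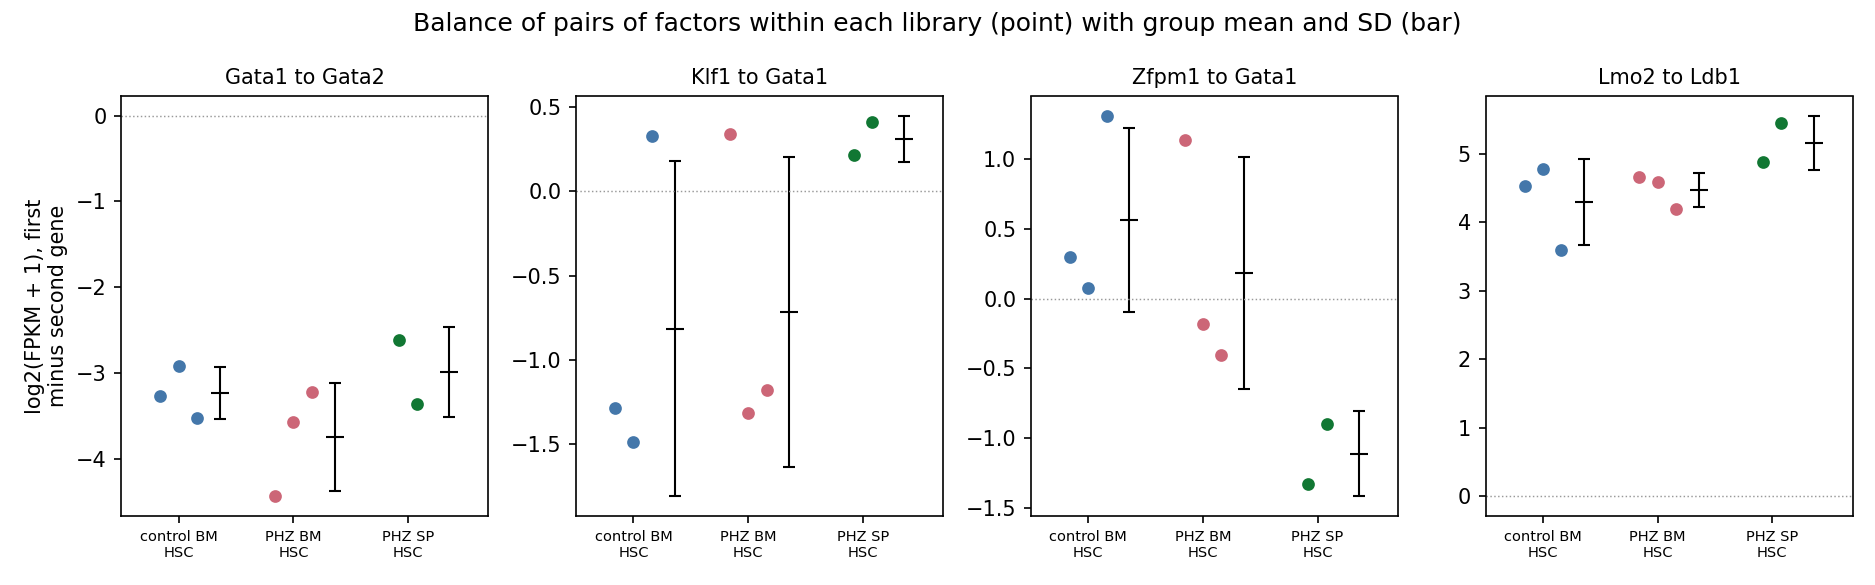
Balance of 4 pairs of factors within each library (y axis: log2(FPKM + 1) of the first gene minus that of the second) by group (x axis); points are libraries, bars give mean and SD, and the dotted line marks equal values. Gata1 to Gata2 lies between -4.44 and -2.62 in all libraries with overlapping groups, whereas Zfpm1 to Gata1 is lowest and Lmo2 to Ldb1 highest in PHZ SP HSCs.

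Other balances are given as descriptions, with no test. The level of Zfpm1 was 1.30, 1.06 and 3.15 times that of Gata1 in control BM HSCs, 2.68, 0.864 and 0.717 times in PHZ BM HSCs, and 0.327 and 0.461 times in PHZ SP HSCs, the 2 lowest values. The level of Klf1 was 1.18 and 1.38 times that of Gata1 in PHZ SP HSCs; in marrow it ranged from 0.236 to 1.37 times, and 1 control library and 1 PHZ BM library reached the spleen values.

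Lmo2 and Lyl1 of the bridging complex had the highest mean levels over the 8 libraries, and Tal1 and Ldb1 stood at ranks 6 and 7 of the 10 factors. Lmo2 (16909, chr2:103957903-103981878), whose product links the DNA-binding partners, was at 369, 381 and 213 FPKM in control BM HSCs, 446, 416 and 262 FPKM in PHZ BM HSCs and 262 and 299 FPKM in PHZ SP HSCs. The third library of each marrow group was the lowest of its group, and the groups overlapped in all comparisons. No Lmo2 difference passed by limma without a replicate block. The largest was -0.38 ± 0.27 in log2 between PHZ SP HSCs and PHZ BM HSCs (adjusted p = 0.576).

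Ldb1 (16825, chr19:46031525-46048145), whose product joins such complexes into chromatin loops, was at 15.0, 12.99 and 16.8 FPKM in control BM HSCs, 16.8, 16.4 and 13.4 FPKM in PHZ BM HSCs and 7.92 and 5.90 FPKM in PHZ SP HSCs. Both spleen libraries lay below all 6 marrow libraries. The spleen mean of 6.91 ± 1.43 FPKM (SD, n = 2) was 0.445 times that of PHZ BM HSCs (15.5 ± 1.86 FPKM, SD, n = 3). This was a log2 difference of -1.07 ± 0.22 (95% interval -1.55 to -0.58) with adjusted p = 0.0496. Against control BM HSCs (14.9 ± 1.92 FPKM, SD, n = 3) the difference was -1.01 ± 0.22 and just missed the threshold (adjusted p = 0.0614). The Ldb1 call against PHZ BM HSCs was close to the threshold, and 3 of 9 other settings kept it (limma adjusted p from 0.0426 to 0.0876). Leaving out a single library kept it in 1 of 8 fits (without control BM HSC 1), with adjusted p from 0.0472 to 0.214. The log2 difference stayed between -1.25 and -0.88. Ldb1 shares 177 of its 4606 exonic bases with Pprc1 on the other strand, and the handling of strand by the authors is not stated. Pprc1 was at 5.59 ± 3.01 FPKM (SD, n = 3) in control BM HSCs, 5.72 ± 1.32 (SD, n = 3) in PHZ BM HSCs and 3.45 ± 1.28 (SD, n = 2) in PHZ SP HSCs. The level of Lmo2 was 33.1 and 50.6 times that of Ldb1 in PHZ SP HSCs and 12.7 to 29.3 times in marrow libraries.

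Tal1 (21349, chr4:115056426-115071755), the E-box binding partner, was at 11.5, 13.1 and 10.6 FPKM in control BM HSCs, 15.0, 14.3 and 15.5 FPKM in PHZ BM HSCs and 12.7 and 15.1 FPKM in PHZ SP HSCs. All PHZ BM libraries lay above all control libraries, and the log2 difference of 0.33 ± 0.18 did not pass (adjusted p = 0.373).

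Lyl1 (17095, chr8:84701423-84704716), the TAL1 relative that can take its place in early cells, was at 91.6, 84.9 and 95.2 FPKM in control BM HSCs, 154, 137 and 117 FPKM in PHZ BM HSCs and 115 and 82.8 FPKM in PHZ SP HSCs. All PHZ BM libraries lay above the control and the spleen libraries. The mean in PHZ BM HSCs was 1.501 times that in control, with a log2 difference of 0.57 ± 0.16 (95% interval 0.23 to 0.92) and adjusted p = 0.0845; this passed only without PHZ BM HSC 3 (adjusted p = 0.0479). PHZ SP HSCs differed from PHZ BM HSCs by -0.46 ± 0.18 (adjusted p = 0.272). The level of Lyl1 was between 5.47 and 10.3 times that of Tal1 in all 8 libraries.

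Klf1 (16596, chr8:84901982-84905291), the activator of globin genes, was at 0.802, 1.30 and 3.05 FPKM in control BM HSCs, 3.49, 1.95 and 2.22 FPKM in PHZ BM HSCs and 10.1 and 8.54 FPKM in PHZ SP HSCs. Both spleen libraries stood apart from all 6 marrow libraries, and the marrow groups overlapped. The values rest on 12 to 60 reads in marrow libraries and on 173 and 136 reads in the spleen libraries. The spleen mean of 9.33 ± 1.11 FPKM (SD, n = 2) was 5.43 times the control mean of 1.72 ± 1.18 FPKM (SD, n = 3). This was a log2 difference of 2.01 ± 0.36 (95% interval 1.23 to 2.79) with adjusted p = 0.0361. Against PHZ BM HSCs (2.55 ± 0.823 FPKM, SD, n = 3) it was 3.65 times higher, a log2 difference of 1.56 ± 0.36 that did not pass (adjusted p = 0.0709). It passed in 3 of 16 alternatives: without control BM HSC 1 (adjusted p = 0.0426), without control BM HSC 3 (0.0410) and with only the 2 groups compared (0.0309); the highest was 0.349. PHZ BM HSCs differed from control by 0.45 ± 0.32 (adjusted p = 0.521). Leaving out a single library kept the Klf1 call against control in 3 of 8 fits. It was lost without control BM HSC 1 (adjusted p = 0.0580), control BM HSC 2 (0.0713), PHZ BM HSC 2 (0.0602), PHZ SP HSC 1 (0.229) and PHZ SP HSC 2 (0.109). The log2 difference was between 1.75 and 2.34 in all 8. Of 8 other settings that tested Klf1, 4 kept this call (limma adjusted p from 0.0364 to 0.0969). The call was lost with a pseudocount of 0.1 FPKM, with no filter, with voom and with only the 2 groups compared.

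Summed marker levels of several other cell types were also higher in the spleen libraries. Of 10 red cell precursor markers, 7 were listed, and their summed level was 116 to 277 FPKM in control BM HSCs, 172 to 327 FPKM in PHZ BM HSCs and 900 to 1122 FPKM in PHZ SP HSCs. All 7 had a higher mean in PHZ SP HSCs than in either marrow group. All 9 neutrophil markers were higher in the mean of PHZ SP HSCs than in control, with sums of 428 to 737, 506 to 1056 and 1410 to 1794 FPKM in control BM HSCs, PHZ BM HSCs and PHZ SP HSCs; Ctsg was at 0 in all control libraries. Only 5 of the 9 were higher than in PHZ BM HSCs: S100a8, S100a9, Ltf, Ngp and Camp were higher, and Prtn3, Elane, Mpo and Ctsg were lower. Sums of the 8 macrophage markers were 5.06 to 15.6, 6.29 to 21.1 and 39.2 to 61.3 FPKM in the same order, but only 3 of the 8 had a higher mean in PHZ SP HSCs than in control and 5 of 8 than in PHZ BM HSCs. Most of the macrophage sum in spleen was Cd68, at 34.4 and 57.6 FPKM. Per the study's methods, HSCs were sorted as cells without Ter119, Gr-1, B220, CD2, CD3 and CD8, a gate directed at maturing red cells, neutrophils and lymphocytes. The study describes a check of purity after the sort, and whether such cells remained in these libraries was not tested. The part of these cells in the levels of Klf1, Gata1 and the other factors was not tested, and in bulk RNA more cells of a type and more RNA per cell cannot be told apart. Other cells use Gata1 or Gata2 too. Markers of megakaryocytes summed to 125 to 153, 97.4 to 119 and 93.3 to 153 FPKM, with 3 of 11 higher in the mean of PHZ SP HSCs than in both marrow groups. Those of mast cells and basophils summed to 0.629 to 4.67, 4.72 to 7.55 and 4.27 to 10.1 FPKM, with 7 of the 8 listed higher than in both marrow groups and Cpa3 lower. Of these 7, Mcpt8, Prss34, Fcer1a, Cma1 and Gzmb were at 0 in PHZ SP HSC 1 and Ms4a2 in PHZ SP HSC 2. Only 1 of the 8 passed the filter on low values. The 6 eosinophil markers summed to 4.21 to 7.65, 3.04 to 6.65 and 11.02 to 14.6 FPKM, so that both spleen libraries lay above all marrow libraries. Of these 6, 3 (Prg2, Epx and Ear1) had a higher mean in PHZ SP HSCs than in both marrow groups; Prg2 made up most of the sum, and Il5ra was at 0 in all control and both spleen libraries. B cell markers summed to 26.8 to 50.6, 28.2 to 30.5 and 38.3 to 53.8 FPKM, most of it Cd79b, and all 6 listed had a higher mean in PHZ SP HSCs than in both marrow groups. T and NK cell markers summed to 19.1 to 60.3, 28.3 to 46.8 and 30.27 to 30.3 FPKM, most of it Nkg7, with 4 of 7 higher than in both marrow groups. HSC markers summed to 418 to 561, 464 to 565 and 522 to 540 FPKM.

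**Figure D3:**
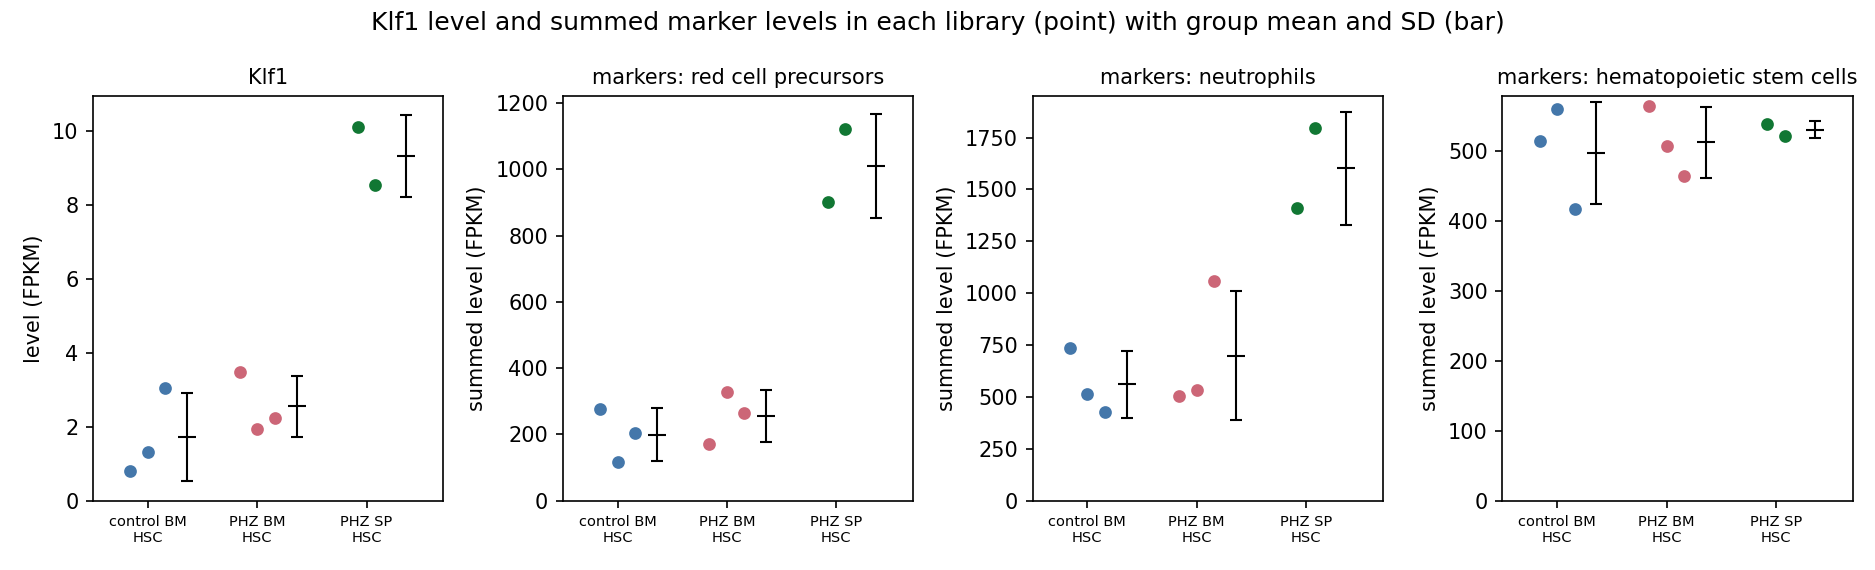
Level of Klf1 and summed level of the markers of red cell precursors, neutrophils and HSCs (y axes in FPKM, from 0) by group (x axis); points are libraries and bars give mean and SD. Klf1, red cell precursor and neutrophil sums are all highest in the 2 PHZ SP HSC libraries, and HSC marker sums overlap among the groups.

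Gfi1b (14582, chr2:28609450-28621982), a repressor needed for red cell and platelet formation, was at 36.3, 18.1 and 29.3 FPKM in control BM HSCs, 69.7, 46.1 and 25.6 FPKM in PHZ BM HSCs and 37.2 and 27.6 FPKM in PHZ SP HSCs. The groups overlapped in all comparisons, and of the PHZ BM libraries PHZ BM HSC 3 alone lay within the control range. The log2 difference of 0.68 ± 0.33 between PHZ BM HSCs and control did not pass (adjusted p = 0.337). Over 17 alternatives this difference lay between 0.35 and 1.05.

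Nfe2 (18022, chr15:103248212-103258403) was at 64.1, 67.7 and 67.2 FPKM in control BM HSCs, 95.4, 82.0 and 76.5 FPKM in PHZ BM HSCs and 58.5 and 60.1 FPKM in PHZ SP HSCs. The groups did not overlap in any comparison, in the order PHZ BM HSCs, control, PHZ SP HSCs. None of the differences passed: 0.34 ± 0.13 in log2 for PHZ BM HSCs against control (adjusted p = 0.213), -0.50 ± 0.15 for PHZ SP HSCs against PHZ BM HSCs (adjusted p = 0.160) and -0.16 ± 0.15 for PHZ SP HSCs against control (adjusted p = 0.641).

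**Figure D4:**
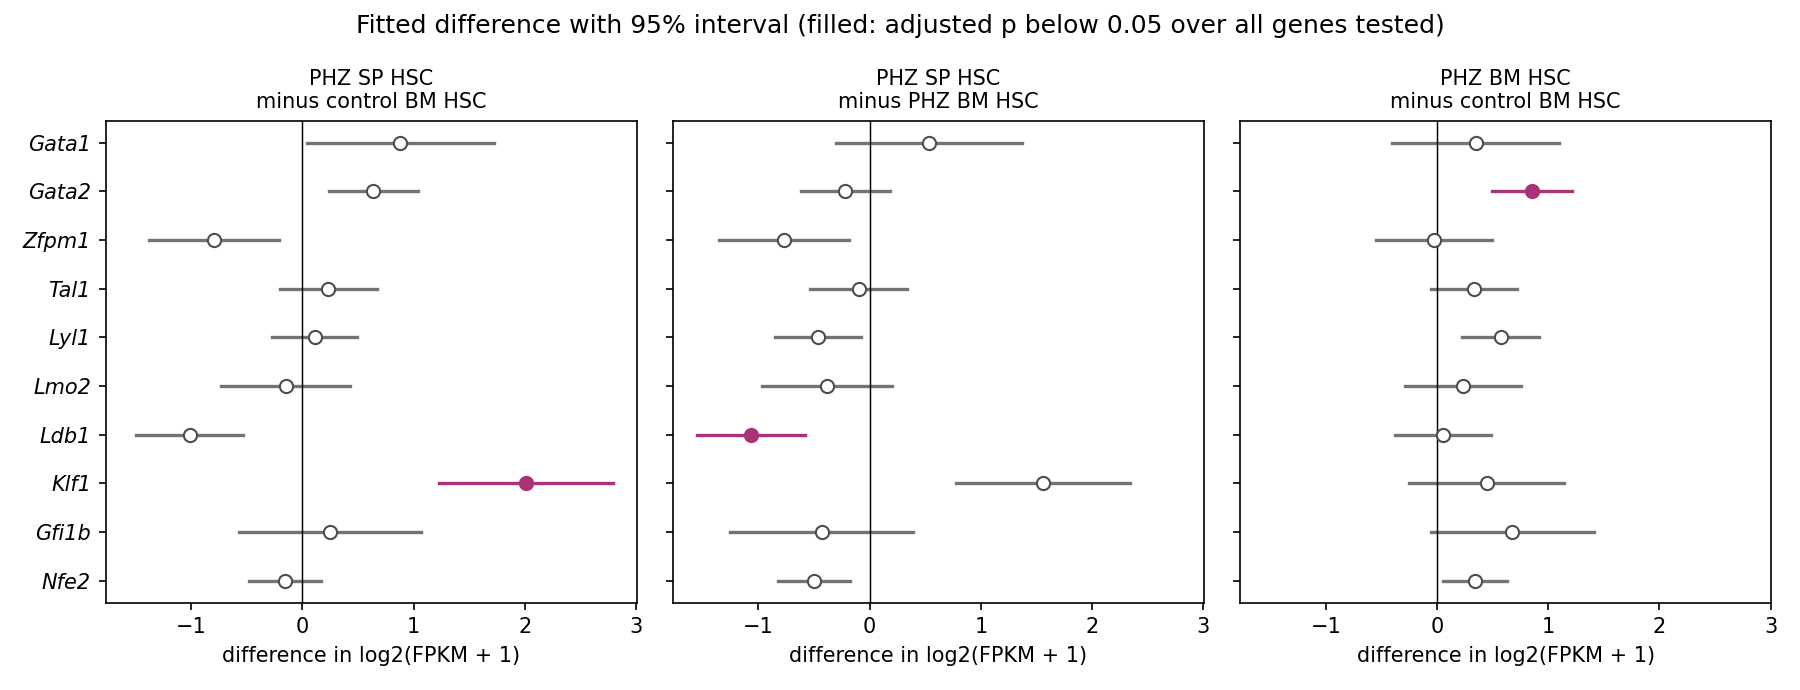
Fitted difference in log2(FPKM + 1) (x axis) of each factor (y axis) in the 3 comparisons, with its 95% interval; filled points passed an adjusted p of 0.05 over all genes tested. The filled points are Klf1 (2.01), Ldb1 (-1.07) and Gata2 (0.86), 1 in each panel.

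Counted together, 9 of the 10 factors in PHZ BM HSCs had a higher mean than in control, beside 51.2% of all genes. The median log2 difference of the 10 was 0.34 (0.01 over all genes tested), and 4 of 10 had groups that did not overlap, beside 23.9% of all genes. In PHZ SP HSCs against control 6 of 10 factors were higher, beside 49.9% of all genes. The median of the 10 was 0.17 (-0.00 over all genes), and 6 of 10 did not overlap, 3 higher and 3 lower, beside 28.9% of all genes. Against PHZ BM HSCs 2 of 10 were higher in PHZ SP HSCs and 8 were lower, where 48.2% of all genes were higher. The median of the 10 was -0.41 (-0.02 over all genes), and 5 of 10 did not overlap, beside 34.8% of all genes. An unadjusted p under 0.05 was reached by 5, 5 and 3 of the 10 factors in PHZ SP HSCs against control, PHZ SP HSCs against PHZ BM HSCs and PHZ BM HSCs against control, beside 15.8%, 13.5% and 16.6% of all genes.

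The genes that the network controls were then described from a list of 34 erythroid genes known to be activated by GATA1 or KLF1, of which 31 were listed and 30 tested. In PHZ SP HSCs 8 of the 30 rose against control BM HSCs and 0 fell, beside 0.758% of all genes called. The mean was higher for 26 of 30, beside 49.9% of all genes, and the median log2 difference was 1.11. The genes that rose included Cldn13, Slc4a1, Hbb-bt, Hba-a1, Trim10, Tfrc and Ermap. Ermap, Ank1, Sptb and Add2 had means under 1 FPKM in both marrow groups, and the spleen libraries took them past the filter. Counts and medians of the spleen comparisons thus lean upward by an amount that was not tested. Against PHZ BM HSCs 3 of 30 rose (Cldn13, Slc4a1 and Hbb-bt), beside 0.978% of all genes called. The mean was higher for 28 of 30, beside 48.2% of all genes, and the median was 1.06. In PHZ BM HSCs against control 0 of 30 passed by limma, beside 2.74% of all genes, and 0 by voom on the recovered reads. An unadjusted limma p under 0.05 was reached by 4 of 30, beside 16.6% of all genes, and the median was 0.27. All 7 red cell precursor markers above are in this list, and several of its genes are among those the study itself examined in these libraries, so its direction is not independent evidence. The count against control fell to 1 (Cldn13) without either PHZ SP HSC library and to 5 without control BM HSC 2 or PHZ BM HSC 2. The count against PHZ BM HSCs was 0 without either PHZ SP HSC library, 1 without PHZ BM HSC 1, 6 without control BM HSC 1 and 5 without control BM HSC 2.

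**Figure D5:**
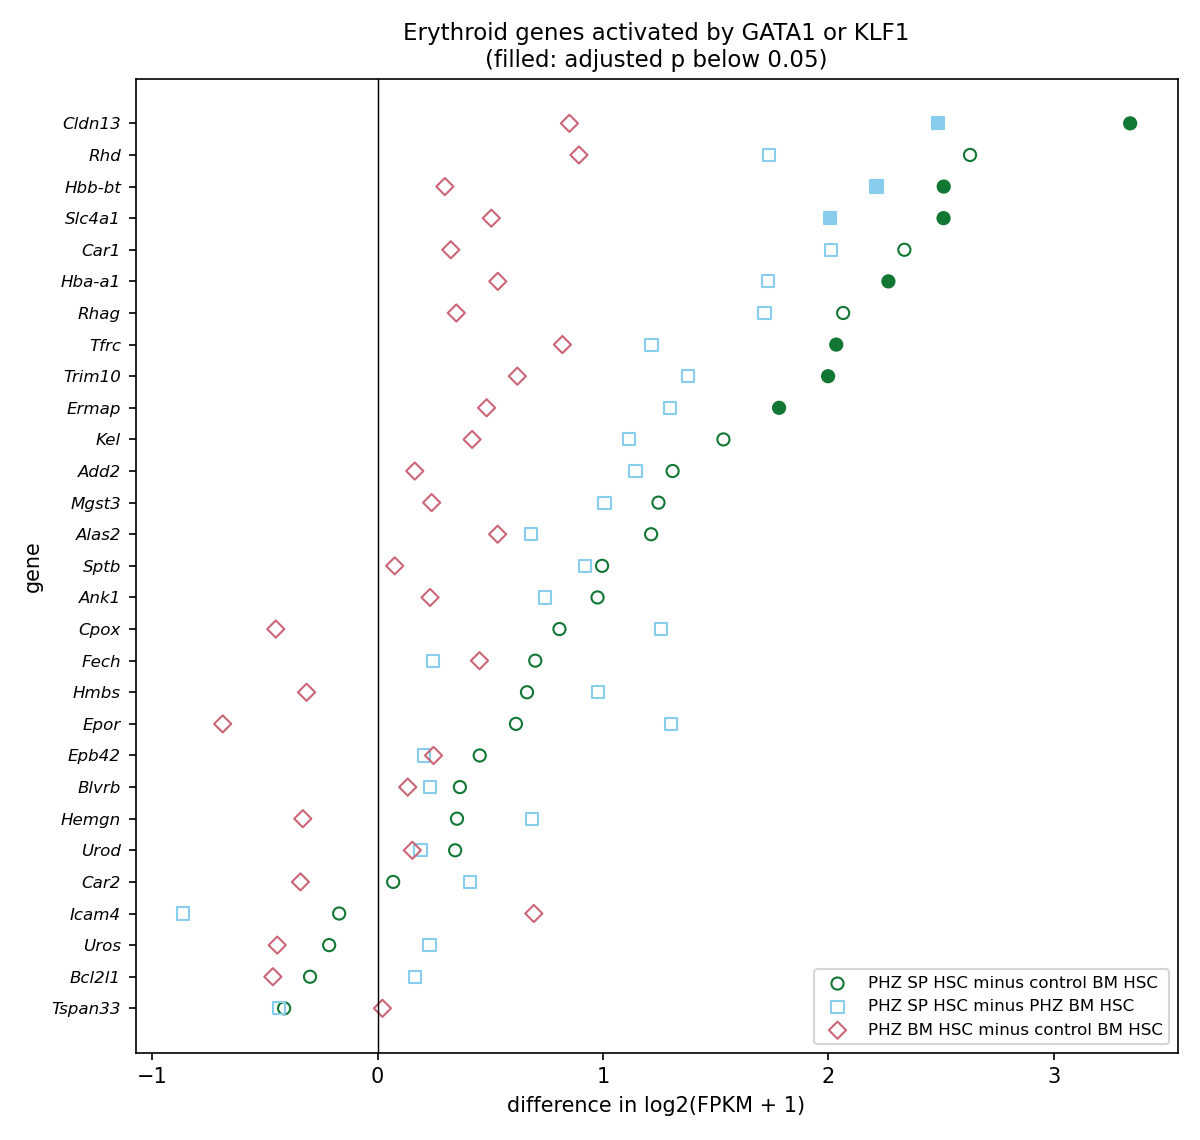
Difference in log2(FPKM + 1) (x axis) of 29 of the tested erythroid genes activated by GATA1 or KLF1 (y axis, ordered by the difference of PHZ SP HSCs from control BM HSCs) in the 3 comparisons; filled symbols passed an adjusted p of 0.05. Both spleen comparisons lie mostly to the right of 0, with 7 and 3 filled symbols, and the marrow comparison has none.

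Slc4a1, the anion exchanger band 3 of the red cell membrane, was at 2.11, 2.37 and 4.09 FPKM in control BM HSCs, 2.87, 5.53 and 5.04 FPKM in PHZ BM HSCs and 19.1 and 21.9 FPKM in PHZ SP HSCs. Its log2 difference from control was 2.51 ± 0.31 (adjusted p = 0.00390) and from PHZ BM HSCs 2.01 ± 0.31 (adjusted p = 0.0140). Both spleen libraries were far above all marrow libraries, the same separation as for Klf1.

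Cldn13, a claudin of erythroid cells, was at 0, 0.311 and 1.02 FPKM in control BM HSCs, 1.25, 2.09 and 1.23 FPKM in PHZ BM HSCs and 15.3 and 11.1 FPKM in PHZ SP HSCs. Its log2 difference from control was 3.34 ± 0.34 (adjusted p = 0.00162). Its libraries separated spleen from marrow.

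The beta globin gene Hbb-bt was at 176, 72.8 and 113 FPKM in control BM HSCs, 95.6, 180 and 158 FPKM in PHZ BM HSCs and 579 and 731 FPKM in PHZ SP HSCs. Its log2 difference from control was 2.51 ± 0.33 (adjusted p = 0.00649). The alpha globin gene Hba-a1 was at 96.8, 35.7 and 83.4 FPKM in control BM HSCs, 68.6, 132 and 98.2 FPKM in PHZ BM HSCs and 291 and 357 FPKM in PHZ SP HSCs. Its difference from control was 2.27 ± 0.37 (adjusted p = 0.0240). This call was lost with a pseudocount of 0.1 FPKM, with no filter, with no trend or robust option and with the replicate block. Globin genes have near-identical copies, between which the authors' counting could split reads, so their levels are uncertain. Globin RNA was present in every library, including control BM HSCs in which Klf1 had as few as 12 reads. Epor, the erythropoietin receptor, was at 4.82 ± 2.53 FPKM (SD, n = 3) in control BM HSCs, 2.502 ± 1.45 (SD, n = 3) in PHZ BM HSCs and 7.80 ± 4.54 (SD, n = 2) in PHZ SP HSCs. Its log2 difference of 0.61 ± 0.48 between PHZ SP HSCs and control did not pass (adjusted p = 0.572). Epor is named here after its values were seen.

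Of 24 partners and corepressors of the GATA and TAL complexes, 0 passed in any comparison by limma. An unadjusted limma p under 0.05 was reached by 3, 1 and 1 in PHZ SP HSCs against control, PHZ SP HSCs against PHZ BM HSCs and PHZ BM HSCs against control. The shares of all genes were 15.8%, 13.5% and 16.6%. The medians of the 24 were -0.21, -0.10 and -0.14 in log2. In PHZ BM HSCs against control 1 of the 24, Rbbp4, passed in voom on the recovered reads, with at least 1 FPKM in every library, with the FPKM as deposited and with scaling by library total without Rn45s. Rbbp4, a histone-binding subunit of the NuRD complex, was at 23.3, 28.1 and 29.4 FPKM in control BM HSCs, 16.3, 16.7 and 16.3 FPKM in PHZ BM HSCs and 21.9 and 22.8 FPKM in PHZ SP HSCs. PHZ BM HSCs differed from control by -0.67 with adjusted p = 0.0516. Mta1, another NuRD subunit, was at 11.04, 7.05 and 6.72 FPKM in control BM HSCs and 3.60 and 3.96 FPKM in PHZ SP HSCs, a difference of -0.93 (adjusted p = 0.122).

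Of 14 stem and progenitor transcription factors tested, 1 rose, in PHZ BM HSCs against control, beside 2.74% of all genes called. The gene that rose was Spi1, which encodes PU.1, a myeloid factor that opposes GATA1. Spi1 was at 29.3, 23.9 and 30.8 FPKM in control BM HSCs, 46.7, 43.9 and 52.2 FPKM in PHZ BM HSCs and 47.4 and 43.0 FPKM in PHZ SP HSCs. All PHZ libraries lay above all control libraries, as for Gata2. Its log2 difference in PHZ BM HSCs was 0.75 (adjusted p = 0.0268), and the call held in 11 of 17 alternatives (adjusted p up to 0.113). It was lost without any 1 of PHZ BM HSC 1, 2 or 3, control BM HSC 1 or control BM HSC 2, and with no trend or robust option.

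Of 19 later erythroid and NF-E2 partner factors, 1 rose, also in PHZ BM HSCs against control, beside 2.74% of all genes called. Nfe2l2, which encodes the oxidative stress factor NRF2, was at 11.5, 15.6 and 15.96 FPKM in control BM HSCs, 28.3, 24.1 and 23.5 FPKM in PHZ BM HSCs and 26.8 and 23.4 FPKM in PHZ SP HSCs. The difference was 0.79 in log2 (adjusted p = 0.0454), and the call held in 3 of 17 alternatives and in none of the 8 that leave out a library, with adjusted p up to 0.211.

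Among 4 Id and Hes genes, whose products hold back E-box binding factors, Hes1 was at 1.88, 1.02 and 0.358 FPKM in control BM HSCs, 7.84, 6.73 and 10.3 FPKM in PHZ BM HSCs and 7.97 and 4.81 FPKM in PHZ SP HSCs. Hes1, a target of Notch signaling, rose in PHZ BM HSCs against control by 2.20 in log2 (adjusted p = 0.00433), a call that held in all 16 alternatives that gave a value. It also rose in PHZ SP HSCs against control, by 1.86 (adjusted p = 0.0423), a call that held in 3 of 16 alternatives (adjusted p up to 0.272) and was lost without any 1 of 7 libraries, all but control BM HSC 1.

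Of 4 tested genes that fall as GATA1 rises in maturing red cells, 0 passed in any comparison by limma without a replicate block or by voom. An unadjusted limma p under 0.05 was reached by 2, 1 and 1, in the order used above, beside 15.8%, 13.5% and 16.6% of all genes. The mean was lower for 3, 4 and 2 of the 4, with medians of -0.51, -0.51 and -0.04 in log2. Myc was at 52.6, 32.9 and 71.3 FPKM in control BM HSCs, 79.1, 90.1 and 130 FPKM in PHZ BM HSCs and 41.5 and 62.2 FPKM in PHZ SP HSCs. The difference was 0.96 in log2 between PHZ BM HSCs and control (adjusted p = 0.101). Myb, a progenitor factor, was at 30.3, 23.8 and 29.5 FPKM in control BM HSCs, 24.7, 23.2 and 24.5 FPKM in PHZ BM HSCs and 14.4 and 21.1 FPKM in PHZ SP HSCs. The difference was -0.64 between PHZ SP HSCs and control (adjusted p = 0.164). Both spleen libraries were below all marrow libraries for Myb.

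The genes whose pattern over the 8 libraries was most like that of 3 of the factors were listed by Pearson's r on the log2(FPKM + 1) scale among genes with a mean of at least 5 FPKM; the points share groups and libraries, so r is a description. For Klf1 they were Mocs1 (r = 0.97), Mgst3, Vps26a, Wrap73 and Fyb, of which Mgst3 is also in the list of erythroid genes. Mocs1 was at 5.16 ± 1.54 FPKM (SD, n = 3), 6.93 ± 0.140 (SD, n = 3) and 11.7 ± 0.901 (SD, n = 2) in control BM HSCs, PHZ BM HSCs and PHZ SP HSCs. For Gata2 they included Eef2 (r = 0.97), Glul, Trim47 and Avpi1, and Glul was at 49.8 ± 6.60, 104 ± 13.7 and 91.0 ± 2.15 FPKM in the same order. For Gata1 they were Nt5dc1 (r = 0.89), Mvp, Lamtor5, Tfec and Atp6ap1, and Nt5dc1 was at 7.81 ± 0.971, 8.58 ± 1.35 and 10.1 ± 0.609 FPKM.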

How the data were processed

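RNA-seq libraries were made from sorted HSCs with SMART-Seq2 and Nextera XT. The authors mapped the reads to mm10 with STAR, used DESeq2 for their comparisons, and deposited FPKM values in a table per group; the gene counter, annotation and strand setting are not given in the sources used here. The authors' deposited comparison tables (log2 fold changes and p-values) were not used. Marrow columns are named WBM and were taken as the BM HSC samples of the same group and number. Groups and replicate numbers were taken from the sample titles.

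Values above 0 (110442 of 110442) were whole multiples of 1 read within 0.0001 reads, which gave reads per gene, without molecular identifiers. The 95% intervals printed are those of the limma fit and rest on the spread between libraries. A common set of median-of-ratios factors, computed from the 8 libraries together, was then applied to the FPKM values, with shifts of at most 1.05%. limma 3.58.1 (R 4.3.3, trend and robust) was fitted on log2(FPKM + 1) for 11347 genes, with all 8 libraries in 1 fit and Benjamini-Hochberg adjustment; such fold changes understate changes of low genes. Test code was checked on simulated data. All 10 factors are named; of each gene list, genes past the threshold in any comparison are named, at most 5 by smallest p, otherwise the 2 with the smallest p, and the 5 genes most like Gata1, Gata2 and Klf1. A few genes that these rules name are not reported here. The factors, lists and tests were chosen with earlier results of these data known. Gene coordinates are GRCm38 (mm10), and sequences are RefSeq's.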

Additional observations from a re-analysis of the deposited data

How the results depend on the processing

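Of 507 values of the 10 factors under 9 other settings and 8 fits without 1 library, 499 kept their direction. The number of factors called in PHZ SP HSCs against control BM HSCs, 1 as reported, was 0 with a pseudocount of 0.1 FPKM, with no filter on low values, with at least 1 FPKM in every library (Klf1 is then not tested), with voom on recovered reads and with only the 2 groups compared; it ranged from 0 to 1 when 1 library was left out. Against PHZ BM HSCs, 1 as reported (Ldb1), it was 0 with no filter, with no trend or robust option, scaled by library total without Rn45s and with voom, and ranged from 0 to 2 when 1 library was left out; with only the 2 groups compared the 1 gene called was Klf1 (adjusted p = 0.0309) and no longer Ldb1. In PHZ BM HSCs against control, 1 as reported (Gata2), it was 0 with no trend or robust option and ranged from 0 to 2. The cause of these changes was not tested, apart from Klf1 under the strict filter.

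Direction turned only when 1 library was left out. The ranges of the log2 difference were -0.13 to 0.34 for Lyl1 and -0.0238 to 0.46 for Gfi1b in PHZ SP HSCs against control, -0.22 to 0.0171 for Tal1 in PHZ SP HSCs against PHZ BM HSCs, and -0.18 to 0.11 for Zfpm1 (0.11 without control BM HSC 3 and 0.09 without PHZ BM HSC 3), -0.0388 to 0.47 for Lmo2 and -0.036 to 0.15 for Ldb1 (-0.001 without PHZ BM HSC 1) in PHZ BM HSCs against control. The Gata1 to Gata2 balance of PHZ SP HSCs against control ranged from -0.13 to 0.61. None of these had passed a threshold.

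Replicate numbers did not pair the libraries: the correlation of deviations of same-numbered libraries ranged from -0.008 to 0.060. With the replicate block the count of factors called was 1 in each comparison, Klf1 (adjusted p = 0.0431), Lmo2 (0.0433) in place of Ldb1 (0.0759), and Gata2 (0.00923). Of the genes that fall as GATA1 rises, 1 (Myc) was called in PHZ BM HSCs against control with the block, and 0 were called in the other 16 alternatives.

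Over all genes the count of 86 for PHZ SP HSCs against control was 39 with a pseudocount of 0.1 FPKM, 46 with no filter, 42 with only the 2 groups, and 14 to 83 without 1 library. The count of 111 against PHZ BM HSCs was 62 with no filter, 63 with no trend or robust option, 65 with voom, and 6 to 146 without 1 library. The count of 311 for PHZ BM HSCs against control was 205 with no filter, 204 with no trend or robust option, and 115 to 306 without 1 library. Of the erythroid genes activated by GATA1 or KLF1, the 8 called in PHZ SP HSCs against control became 3 with a pseudocount of 0.1 FPKM, 4 with no filter and 3 with at least 1 FPKM in every library, and the 3 called against PHZ BM HSCs became 7 with only the 2 groups. Of the 10 factors, Klf1 rested on the fewest reads in marrow libraries, 12 to 60.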
